A study of Mus musculus with 23 samples.

Results

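The response of MC38 tumors to anti-PD-1 antibody (aPD1) was measured 48 h after a single dose in 12 of the 23 tumors of the series. These were all tumors from hosts of the lines CC001F1, CC002F1 and CC075F1, chosen by the host line and antibody in their labels, and they comprised 6 tumors from aPD1-treated mice and 6 from isotype-treated mice, with 2 of each in every line. The study's text calls these 3 lines responders, a class that the labels do not give, and sets them against 3 non-responder lines, CC036F1, CC079F1 and CC080F1, which held the other 11 tumors. The MC38 line was derived from a colon carcinoma of a C57BL/6 mouse, and each host was a first-generation (F1) cross of C57BL/6J with 1 line of the Collaborative Cross, a panel of inbred mouse lines that mix the genomes of several founder strains, so the injected tumor cells were the same in every host. All hosts were female mice of 8 to 12 weeks that were injected with MC38 cells under the skin and, once the tumor measured 75 to 110 mm3, a single intraperitoneal injection of 200 µg of aPD1 or of isotype antibody. Whole tumors were profiled by RNA-seq of polyadenylated RNA. Counts were divided by DESeq2 size factors of the 12 tumors to give the normalized counts used below. For the non-responder tumors the size factors of all 23 tumors were used. The labels number the 2 tumors of each group as biological replicates but do not state whether they came from separate mice. The p-values therefore measure the spread between these tumors.

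PD-1 is an inhibitory receptor on activated T cells, and an antibody that blocks it keeps the receptor from engaging its ligand PD-L1 on tumor cells and myeloid cells. Activated CD8 T cells and NK cells secrete interferon-γ (IFN-γ), which signals through the kinases JAK1 and JAK2 in macrophages, dendritic cells and tumor cells. Its known targets include the guanylate-binding proteins and immunity-related GTPases, which attack membranes around intracellular pathogens, the machinery that displays peptides on MHC molecules, the chemokines that draw T cells through CXCR3, and PD-L1 itself. Many of the same genes also respond to type I interferon, so a rise of one such gene does not name the interferon.

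The 12 libraries held between 14494014 and 71868253 counts assigned to genes, with a median of 47378719. Only 2 fell under 25000000 counts, CC001F1 isotype replicate 2 and CC075F1 aPD1 replicate 2. The tumor cell marker Shisal2b was found in every library, at 516 to 1276 normalized counts, and the macrophage gene Lyz2 at 19080 to 76510. In bulk tumors, more cells of a type and more RNA per cell cannot be told apart, and this holds for every level below.

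The tumor CC001F1 aPD1 replicate 1 stood apart from the other 5 aPD1 tumors. The mean log2 level of the 32 antiviral interferon-stimulated genes in it differed from the mean of its line's 2 isotype tumors by -0.005, against increments of 0.41 to 1.34 in the other 5. Its partner, CC001F1 aPD1 replicate 2, had the increment of 1.34, so the 2 tumors that make up the CC001F1 response lay at the bottom and at the top of the range. Genes that overlap ribosomal RNA took 9.01% of the counts of replicate 1, against 1.51 to 5.84% in the other 11 tumors, and its skeletal muscle level was the highest of the 12, at 10.8 on the log2 scale. What these values contributed to its position was not tested. The labels hold nothing by which the antibody given to this tumor could be checked, so each CC001F1 value rests on the label as it stands. Counts are therefore given below with all 12 tumors and, where it matters, without this one.

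**Figure D1:**
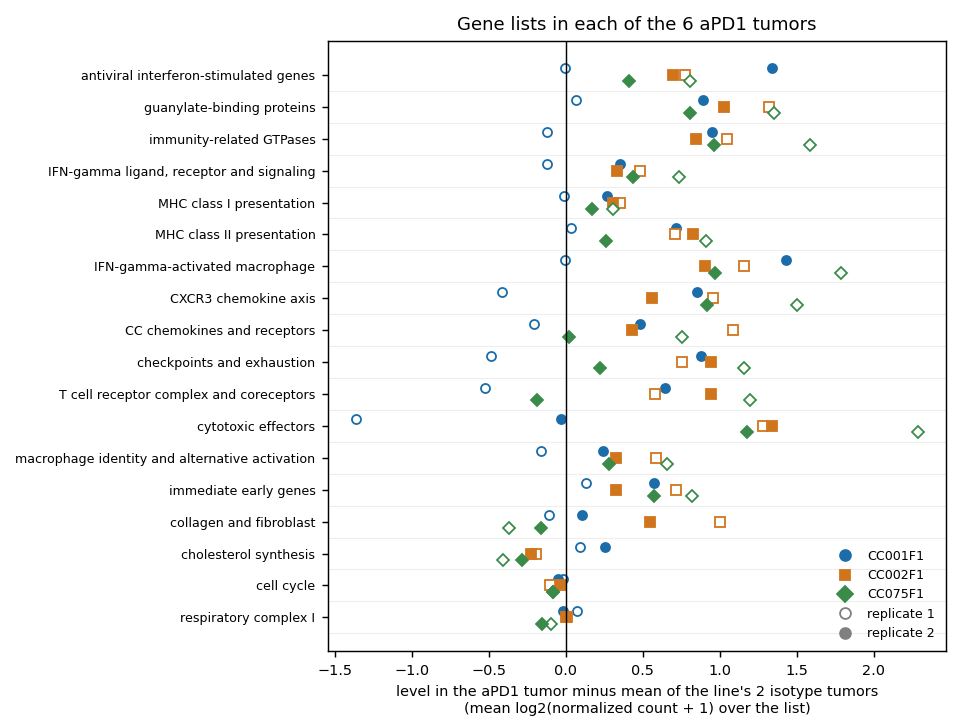
Shift of 18 gene lists in each aPD1 tumor. The horizontal axis is the list's mean log2(normalized count + 1) in the aPD1 tumor minus the mean of the 2 isotype tumors of the same line; colors mark the line, open symbols replicate 1 and filled symbols replicate 2. CC001F1 aPD1 replicate 1 sits at or left of 0 for most interferon lists (-0.005 for the antiviral genes), while the other 5 tumors sit to the right of it (0.41 to 1.34).

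The first question was which genes differed between aPD1 and isotype tumors across the 3 lines, with host line as a term. By the DESeq2 Wald test at a Benjamini-Hochberg adjusted p under 0.05, 826 of 15701 genes tested were called, a background of 5.26%, with 762 higher (4.85%) and 64 lower (0.408%) in aPD1 tumors. Of the 762 higher genes, 755 had a fitted effect above 0 in each of the 3 lines, as had 18.4% of all genes tested. Of the lower genes 43 likewise had both aPD1 tumors below both isotype tumors in each line (1.09% of all tested). In 225 of the higher genes both aPD1 tumors lay above both isotype tumors in each line, a pattern seen in 286 genes (1.82%) of all tested, and in 79 all 6 aPD1 tumors lay above all 6 isotype tumors (0.56% of all tested). Of the 64 lower genes, 63 had an effect below 0 in each line (16.2% of all tested) and 27 had all 6 aPD1 tumors below all 6 isotype tumors (0.331%). The pooled contrast chose the 762 and the 64 from these same tumors. Their shared signs and separated groups follow in large part from that choice and are not independent evidence that the lines agree.

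The number of calls rested on the test and on single tumors. The edgeR quasi-likelihood test with the same terms called 0 of 24858 genes at an adjusted p under 0.05, with 2621 (10.5%) at an unadjusted p under 0.05 and 442 (1.78%) at an adjusted p under 0.1, and limma voom called 0, with 2848 at an unadjusted p under 0.05. All 762 higher genes had an edgeR unadjusted p under 0.05, and 417 of them had an edgeR adjusted p under 0.1. With 1 tumor left out at a time, the DESeq2 count ran from 327 without CC001F1 aPD1 replicate 2 to 1386 without CC001F1 aPD1 replicate 1. It was also moved by more than 1.5 times by leaving out CC075F1 isotype replicate 1 (374 genes), CC002F1 aPD1 replicate 1 (411), CC075F1 aPD1 replicate 1 (425) or CC002F1 isotype replicate 2 (497). In all 12 such fits 234 of the 762 higher genes (30.7%) and 13 of the 64 lower genes (20.3%) were called each time, and 747 of the 762 were called without CC001F1 aPD1 replicate 1. That tumor was picked out by its low interferon levels, so higher list counts without it, given below, are not independent evidence. They stand beside the 1386 calls over all genes without it.

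**Figure D2:**
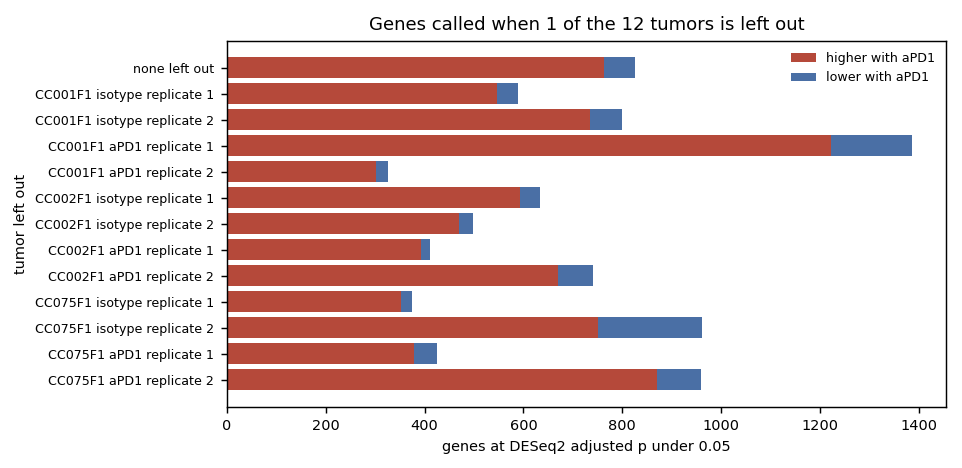
Genes called when 1 of the 12 tumors is left out. Bars give the number of genes at a DESeq2 adjusted p under 0.05, split into genes higher and lower in aPD1 tumors; the top bar is the fit of all 12. The count ran from 327 to 1386, and both ends belong to the 2 aPD1 tumors of CC001F1.

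Each list count below stands beside the 4.85% of all genes tested that were called higher and the 18.4% with an effect above 0 in each line. Genes of IFN-γ and its signaling chain were higher in part. Of 10 genes tested 5 rose, among them the cytokine Ifng, the transcription factors Irf1 and Irf8, and the feedback inhibitor Socs1 (0.51, adjusted p = 0.035), and all 5 had an effect above 0 in every line. Normalized counts of Ifng, the gene for IFN-γ, were 33.0 to 106 (median 53.7) in the 6 isotype tumors and 56.1 to 321 (median 164) in the 6 aPD1 tumors. The groups overlapped only through CC001F1, whose isotype tumors had 95.5 and 106 and whose aPD1 tumors had 56.1 and 201, while in CC002F1 and CC075F1 every aPD1 tumor (130 to 321) was above every isotype tumor (33.0 to 56.7). Ifng rose by a fitted log2 change of 1.5 ± 0.37 (SE, DESeq2 adjusted p = 0.0036), and by line the effect was 0.36 (CC001F1), 1.73 (CC002F1) and 2.40 (CC075F1). The difference of the Ifng effect between lines did not pass the interaction test (adjusted p = 0.37).

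Irf8, a transcription factor of myeloid cells, rose by 0.69 ± 0.16 and Irf1, the early transcription factor of the response, by 0.35 ± 0.10 (adjusted p = 0.003 and 0.012). The receptor genes Ifngr1 and Ifngr2 and the kinase genes Jak1 and Jak2 had log2 values of 0.05, 0.06, 0.05 and -0.01 and did not pass. The list's median log2 change was 0.20, beside -0.01 over all genes tested. Its count of 5 was 3 without any one of CC001F1 aPD1 replicate 2, CC002F1 isotype replicate 1, CC002F1 aPD1 replicate 1, CC075F1 isotype replicate 1 or CC075F1 aPD1 replicate 1.

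The guanylate-binding proteins, large GTPases that coat pathogen vacuoles, rose in the pooled contrast, least in CC001F1. Within lines 0 were called higher in CC001F1, 8 in CC002F1 and 6 in CC075F1. The mean log2 level of the list in CC001F1 aPD1 replicate 1 (10.94) lay between the isotype tumors of its line (10.63 and 11.11). Of the 11 genes tested, 10 rose, all 11 had an effect above 0 in each line, and the median log2 change was 0.87. Gbp2b changed most. Its normalized counts were 122.6 and 170.7 in the CC001F1 isotype tumors, 1160 and 1302 in those of CC002F1 and 150.1 and 190.2 in those of CC075F1, and 310.8 and 1437, 3209 and 2362, and 1615 and 498.9 in the respective aPD1 tumors. Of the 11 genes only Gbp2b had both aPD1 tumors above both isotype tumors in each line. Its CC002F1 isotype tumors already exceeded 2 of the 4 aPD1 tumors of the other lines. The log2 change was 2.14 ± 0.45 (adjusted p = 0.00066). Gbp6 rose by 0.84 ± 0.16, Gbp3 by 0.67 ± 0.13, Gbp10 by 0.88 ± 0.19 and Gbp2 by 0.63 ± 0.15. These genes are near copies of one another, so counts that share reads among them are estimates of a split.

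All 10 immunity-related GTPases tested rose, and all 10 had an effect above 0 in each line, with a median log2 change of 0.95. Gm4951 rose from 440 to 1315 normalized counts in isotype tumors to 1104 to 2253, a log2 change of 1.03 ± 0.18 (adjusted p = 1.5e-05). Gm4841 rose by 1.01 ± 0.18, Iigp1 by 0.97 ± 0.24 and Igtp by 0.87 ± 0.23. Igtp had 4847 in CC001F1 aPD1 replicate 1, under both isotype tumors of its line (5117 and 6417), and 6266 to 11360 in the other 5 aPD1 tumors, against 3636 to 3973 in the isotype tumors of CC002F1 and CC075F1. Without CC001F1 aPD1 replicate 2 only 3 of the 10 were called, without CC002F1 aPD1 replicate 1 only 4 and without CC002F1 isotype replicate 2 only 6.

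Interferons act on promoters through short motifs, the gamma-activated site (GAS, searched as TTCNNNGAA, its own reverse complement) and the interferon-stimulated response element (ISRE, searched as GAAA, any 2 bases and GAAA again, and on the other strand as TTTC, any 2 bases and TTTC, overlapping matches counted). The windows of 250 bases before to 50 bases after the RefSeq gene start were read from GRCm38.p6, and 6 genes that rose are shown because they span the groups of the response: a guanylate-binding protein, an immunity-related GTPase, a pair of antiviral genes, a macrophage gene and a CXCR3 ligand. Capitals mark the matches.
Gbp2b, chr3:142594597-142594896, plus strand: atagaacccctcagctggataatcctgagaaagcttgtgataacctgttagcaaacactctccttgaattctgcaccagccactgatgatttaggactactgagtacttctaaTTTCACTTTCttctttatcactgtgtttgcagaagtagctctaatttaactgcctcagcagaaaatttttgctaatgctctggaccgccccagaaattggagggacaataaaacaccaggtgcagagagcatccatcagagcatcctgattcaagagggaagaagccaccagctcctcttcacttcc
Igtp, chr11:58199306-58199605, plus strand: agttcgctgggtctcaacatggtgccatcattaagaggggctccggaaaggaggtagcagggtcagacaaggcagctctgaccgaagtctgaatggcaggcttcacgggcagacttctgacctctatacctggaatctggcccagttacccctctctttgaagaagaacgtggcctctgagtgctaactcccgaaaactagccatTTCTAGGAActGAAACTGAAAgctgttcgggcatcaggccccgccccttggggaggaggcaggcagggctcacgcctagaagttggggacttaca
Isg15, chr4:156200769-156201068, minus strand: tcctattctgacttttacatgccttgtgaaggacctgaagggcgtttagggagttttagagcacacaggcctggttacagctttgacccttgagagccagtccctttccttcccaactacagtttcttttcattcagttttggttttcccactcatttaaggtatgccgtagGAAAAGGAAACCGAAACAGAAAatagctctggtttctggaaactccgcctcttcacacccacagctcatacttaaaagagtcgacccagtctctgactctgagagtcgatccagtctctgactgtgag
Ifit3, chr19:34583279-34583578, plus strand: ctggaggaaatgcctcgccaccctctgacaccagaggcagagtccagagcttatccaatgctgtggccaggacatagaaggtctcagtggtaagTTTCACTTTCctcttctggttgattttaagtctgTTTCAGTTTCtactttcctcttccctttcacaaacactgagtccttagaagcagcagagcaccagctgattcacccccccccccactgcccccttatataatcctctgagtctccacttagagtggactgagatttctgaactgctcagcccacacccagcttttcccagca
Calhm6, chr10:34127923-34128222, minus strand: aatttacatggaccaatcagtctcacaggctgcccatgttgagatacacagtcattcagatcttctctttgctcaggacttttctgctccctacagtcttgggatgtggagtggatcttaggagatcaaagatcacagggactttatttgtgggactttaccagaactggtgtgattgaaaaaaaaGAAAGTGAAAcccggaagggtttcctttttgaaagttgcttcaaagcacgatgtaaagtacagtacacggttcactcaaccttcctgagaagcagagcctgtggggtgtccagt
Cxcl10, chr5:92348840-92349139, minus strand: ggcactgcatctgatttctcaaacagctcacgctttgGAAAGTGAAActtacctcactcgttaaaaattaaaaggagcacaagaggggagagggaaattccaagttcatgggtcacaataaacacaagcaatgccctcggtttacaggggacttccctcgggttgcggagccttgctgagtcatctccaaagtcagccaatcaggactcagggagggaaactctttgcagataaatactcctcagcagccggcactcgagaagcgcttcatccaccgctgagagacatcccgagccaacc
Igtp held a GAS match 45 bases before the start and an ISRE match 34 bases before it, and Isg15 held 3 overlapping ISRE matches that began 78, 72 and 66 bases before it. Ifit3 held 2 ISRE matches, 156 and 122 bases before the start, and Gbp2b, Calhm6 and Cxcl10 held 1 each, 137, 64 and 213 bases before it. Of all 32851 windows, 3.44% held an ISRE match and 8.3% a GAS match. A window was found for 11023 of the 15701 genes tested (4% with ISRE, 8.42% with GAS) and for 565 of the 762 higher genes, of which 83 (14.7%) held an ISRE match and 71 (12.6%) a GAS match. Among the 43 lower genes with a window, 1 (2.33%) held an ISRE match. The ISRE match was present in 5 of the 5 guanylate-binding proteins with a window, in 6 of the 6 immunity-related GTPases, of which 5 also held GAS, and in 14 of the 24 antiviral genes. Among other lists it was present in 4 of 10 activated macrophage genes, 3 of 11 MHC class I genes, 1 of 8 MHC class II genes, 1 of 3 CXCR3 axis genes and 0 of 9 T cell receptor genes with a window. A match of these letters is a description of the window and does not show that a factor was bound.

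The antiviral interferon-stimulated genes, which sense viral nucleic acid or block viral replication, rose as a broad group. Of 32 tested 25 rose, 30 had an effect above 0 in each line, and the median log2 change was 0.75. Zbp1, a sensor of Z-form nucleic acid, rose by 0.85 ± 0.16 (adjusted p = 0.00011) and Ifi44 by 0.93 ± 0.20. Dhx58, a regulator of the RNA sensors RIG-I and MDA5, had 572 to 798 normalized counts in isotype tumors and 765 to 1971 in aPD1 tumors, with the aPD1 tumors above the isotype tumors within each line, and rose by 0.93 ± 0.19 (adjusted p = 0.00037). Isg15, a ubiquitin-like modifier, had 570 to 846 in isotype tumors and 776 to 1994 in aPD1 tumors and rose by 0.82 ± 0.18 (adjusted p = 0.0017). This was the only interferon list in which the median was highest in CC001F1 (0.81, against 0.75 in CC002F1 and 0.65 in CC075F1), and the CC001F1 value averaged shifts of -0.005 and 1.34. The count fell to 10 of 32 without CC075F1 aPD1 replicate 1, to 13 without CC001F1 isotype replicate 1, to 14 without CC075F1 isotype replicate 1 and to 16 without CC002F1 aPD1 replicate 1.

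Antigen presentation rose by smaller steps on class I and larger ones on class II. Of 14 genes of MHC class I presentation 7 rose, with a median log2 change of 0.20. H2-D1 and H2-K1, the classical class I heavy chains, changed by 0.26 ± 0.06 and 0.26 ± 0.07 (adjusted p = 0.00094 and 0.0052), yet the 6 aPD1 tumors lay wholly above the 6 isotype tumors, at 73540 to 85830 against 61360 to 71070 normalized counts for H2-D1 and at 77260 to 91740 against 61060 to 75930 for H2-K1. The founder strains of the hosts carry different class I alleles, so counts of these heavy chains rest on how reads were assigned to alleles. Nlrc5, the transactivator of class I genes, rose by 0.59 ± 0.11, Tap1, a peptide transporter subunit, by 0.51 ± 0.10 and Psmb9, an immunoproteasome subunit, by 0.35 ± 0.08.

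Of 11 class II genes 8 rose, with a median log2 change of 0.64. Ciita, the transactivator of class II genes, had 466 to 1179 normalized counts in isotype tumors and 975 to 2104 in aPD1 tumors and rose by 0.86 ± 0.17 (adjusted p = 0.00013), with both aPD1 tumors above both isotype tumors in each line. Cd74, the invariant chain, rose by 0.85 ± 0.18, the β chain gene H2-Ab1 by 0.84 ± 0.17 and the protease gene Ctss by 0.64 ± 0.15. Without CC075F1 aPD1 replicate 1, 5 of the 11 were called.

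**Figure D3:**
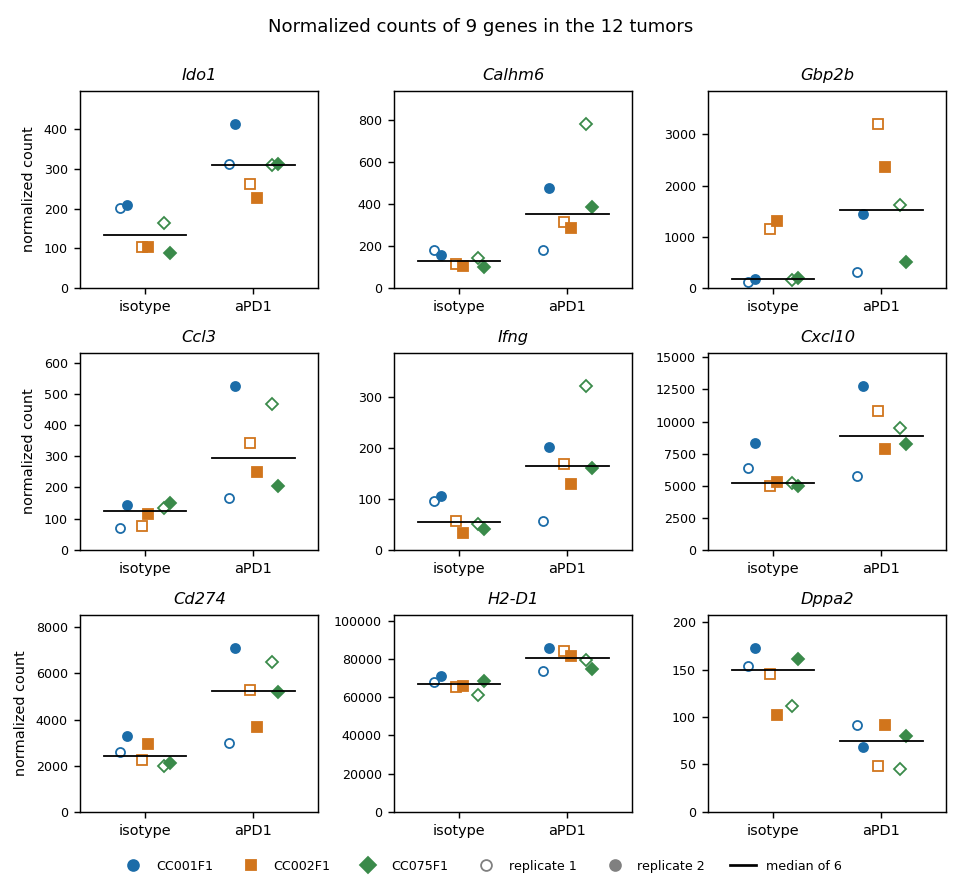
Normalized counts of 9 genes in the 12 tumors. Each panel has a linear vertical axis from 0; points are tumors, colored by line, with open symbols for replicate 1 and filled symbols for replicate 2, and bars mark the median of 6. For Ido1, Calhm6, Ccl3 and H2-D1 all 6 aPD1 points lie above all 6 isotype points, and for Dppa2 all 6 lie below.

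The genes of IFN-γ-activated macrophages had a median log2 change of 1.12. Of 13 tested 11 rose, and all 13 had an effect above 0 in each line. Normalized counts of Ido1, whose enzyme degrades tryptophan, were 87.3 to 209 (median 134) in isotype tumors and 227 to 415 (median 311) in aPD1 tumors. The 2 groups did not overlap, and even CC001F1 aPD1 replicate 1, with 313.1, was above all isotype tumors. Ido1 rose by 1.12 ± 0.17 (adjusted p = 1.9e-07), and by line the effect was 0.83 (CC001F1), 1.25 (CC002F1) and 1.31 (CC075F1). Calhm6, a membrane channel gene of activated macrophages, had 99.4 to 178 in isotype tumors and 182 to 782 in aPD1 tumors, again without overlap, and rose by 1.57 ± 0.27 (adjusted p = 1.5e-05). Acod1, which makes itaconate, rose by 1.48 ± 0.39, Fgl2 by 1.37 ± 0.34 and the transcription factor Batf2 by 0.98 ± 0.20. Without CC001F1 aPD1 replicate 2 the count fell to 5 of 13, and without replicate 1 all 13 were called.

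Macrophage identity genes and genes of alternative activation formed a list of their own. Of 16 tested 7 rose, 10 had an effect above 0 in each line, and the median log2 change was 0.41. The complement genes C1qb and C1qc rose by 0.50 ± 0.12 and 0.49 ± 0.12 and the lysosomal gene Cd68 by 0.53 ± 0.13. Lyz2 did not pass (0.33 ± 0.14, adjusted p = 0.2). Of 8 monocyte genes 3 rose, among them Plac8 by 1.23 ± 0.34 and the adhesion receptor gene Itgam by 0.50 ± 0.14, and of 7 neutrophil genes tested 1 rose, the growth factor receptor Csf3r, by 1.03 ± 0.32 (adjusted p = 0.035). Only 1 of the 8 monocyte genes was called without any one of CC001F1 aPD1 replicate 2, CC002F1 isotype replicate 2, CC075F1 isotype replicate 1 or CC075F1 aPD1 replicate 1. The neutrophil count was 0 without any tumor of CC002F1, without any of CC001F1 other than aPD1 replicate 1 (2 without that one) and without either isotype tumor of CC075F1.

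The ligands of the CXCR3 chemokine receptor and a minority of the CC chemokine genes rose. Of the CXCR3 axis all 3 ligands rose, Cxcl9 by 0.94 ± 0.26, Cxcl10 by 0.67 ± 0.16 and Cxcl11 by 0.94 ± 0.27 (adjusted p = 0.013, 0.0039 and 0.017), while the receptor gene Cxcr3, at 24.9 to 155 normalized counts, did not pass (0.63 ± 0.37). Cxcl9 had 7064 to 12780 in isotype tumors and 9003 to 23960 in aPD1 tumors, and CC001F1 aPD1 replicate 1, with 9003, was below both isotype tumors of its line. Only 1 of the 4 genes was called without any one of CC001F1 isotype replicate 1, CC001F1 aPD1 replicate 2, CC002F1 aPD1 replicate 1, CC075F1 isotype replicate 1 or CC075F1 aPD1 replicate 1. Among the CC family 4 of 14 rose. Ccl3, which attracts T cells and macrophages, had 69.0 to 150 in isotype tumors and 166 to 526 in aPD1 tumors, and Ccl4, its close relative, had 93.3 to 165 and 179 to 648. Neither gene's groups overlapped, and the log2 changes were 1.52 ± 0.29 and 1.46 ± 0.29 (adjusted p = 0.0001 and 0.00018). Ccl7, which attracts monocytes, rose by 0.83 ± 0.26. Without CC001F1 aPD1 replicate 1, 9 of the 14 were called, and without CC001F1 isotype replicate 1, 3.

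Genes that mark T cells did not pass across the 3 lines. Of 18 genes of the T cell receptor complex and its coreceptors 0 were called by DESeq2, although all 18 had a pooled effect above 0, 13 had an effect above 0 in each line, and the median log2 change was 0.60. The smallest adjusted p was that of Lck, the kinase of the CD4 and CD8 coreceptors (0.71 ± 0.24, adjusted p = 0.059). Cd8a had 729.1 and 495.3, 378.8 and 260.9, and 689.4 and 728.8 normalized counts in the isotype tumors of CC001F1, CC002F1 and CC075F1, and 337.2 and 1123, 540.6 and 908.9, and 1397 and 513.3 in the aPD1 tumors. It was higher in both aPD1 tumors than in both isotype tumors in CC002F1 alone. Without CC001F1 aPD1 replicate 1, 10 of the 18 were called, without CC001F1 isotype replicate 1 or CC075F1 aPD1 replicate 2, 3, and without CC002F1 isotype replicate 1, 1.

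The cytotoxic effectors, which lymphocytes use to kill target cells, had a larger median (0.83) but 1 call in 15, Klrk1, which encodes the activating receptor NKG2D (1.02 ± 0.22, adjusted p = 0.00093). Only 3 of the 15 had an effect above 0 in every line (20%, beside 18.4% of all genes tested). The 1 call in 15 (6.67%) was likewise near the 4.85% of all genes tested. Prf1, the pore-forming perforin, had 831.1 and 831.8, 255.5 and 378, and 503.1 and 217.8 in the isotype tumors of the 3 lines in the same order, and 305.3 and 1101, 807.7 and 840.2, and 1528 and 863.1 in the aPD1 tumors. In CC002F1 and CC075F1 every aPD1 tumor exceeded every isotype tumor, and in CC001F1 1 aPD1 tumor lay below and 1 above both isotype tumors. Of 10 NK cell receptor genes 1 rose (10%, beside 4.85% of all genes tested), Klra7, a gene of the near-identical Ly49 family (1.28 ± 0.40, adjusted p = 0.035). Without CC001F1 aPD1 replicate 1, 9 of the 15 effectors and 5 of the 10 NK receptor genes were called, and without CC002F1 isotype replicate 2, 0 and 0. The other tumors left out gave 1 to 3 effectors and 0 to 3 NK receptor genes.

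Of 11 checkpoint and exhaustion genes 4 rose. Cd274, the gene for PD-L1, had 1975 to 3306 normalized counts in isotype tumors and 2982 to 7112 in aPD1 tumors. CC001F1 aPD1 replicate 1 was inside the isotype range and the other 5 were above it, and the log2 change was 1.02 ± 0.24 (adjusted p = 0.0031). Ctla4, an inhibitory receptor of T cells, rose by 1.01 ± 0.25, with both aPD1 tumors above both isotype tumors in each line, Entpd1, an ATP-cleaving surface enzyme, rose by 0.70 ± 0.15 and the inhibitory receptor Lag3 by 0.90 ± 0.29. Of 11 genes of regulatory T cells and costimulation DESeq2 called 0, with adjusted p from 0.051 for Cd28 and 0.054 for Icos, and without CC001F1 aPD1 replicate 1 it called 5. Without that tumor 7 of the 11 checkpoint genes were called, and without CC001F1 aPD1 replicate 2, 3.

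Among the cytokines and receptors that link myeloid cells to T cells, 8 of 16 rose. Il27, a cytokine subunit made by myeloid cells, rose by 1.40 ± 0.39, Il18bp, the secreted inhibitor of IL-18 and a known IFN-γ target, by 1.32 ± 0.36, the shared receptor chain gene Il2rg by 0.74 ± 0.18 and the IL-12 receptor gene Il12rb1 by 0.61 ± 0.13. The count was 2 to 4 of 16 without any one of CC001F1 isotype replicate 1, CC001F1 aPD1 replicate 2, CC002F1 isotype replicate 2, CC002F1 aPD1 replicate 1, CC075F1 isotype replicate 1 or CC075F1 aPD1 replicate 1. Dendritic cell genes rose in part. Of 10 genes of type 1 conventional dendritic cells, which cross-present antigen to CD8 T cells, 3 rose, among them the chemokine receptor Xcr1 by 1.41 ± 0.39 (adjusted p = 0.012), and without CC001F1 aPD1 replicate 2 or CC075F1 isotype replicate 1 DESeq2 called 0 and without CC001F1 isotype replicate 1 or CC075F1 aPD1 replicate 1 it called 1. Of 11 genes of mature dendritic cells 3 rose. Cd83 had 349 to 645 in isotype tumors and 700 to 927 in aPD1 tumors, with no overlap (0.75 ± 0.13, adjusted p = 1.5e-05). Cd40 rose by 0.91 ± 0.21 and Cd86 by 0.65 ± 0.17.

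A minority of the inflammatory genes tested and most of the immediate early genes rose. Tnf, the gene of the cytokine TNF, had 205 to 309 normalized counts in isotype tumors and 296 to 746 in aPD1 tumors and rose by 1.10 ± 0.22 (adjusted p = 0.00025), with both aPD1 tumors above both isotype tumors in each line. Tnfaip3, the NF-κB inhibitor A20, had 1120 to 1546 against 1615 to 2370, without overlap (0.47 ± 0.09, adjusted p = 3.6e-05). With the cytokine gene Il1b (0.79 ± 0.19) and the adhesion gene Icam1 (0.57 ± 0.17) they were the 4 that rose of 13 TNF and NF-κB genes, whose median was 0.13. Of 15 inflammasome and cell death genes 4 rose, including Nlrp3 by 0.61 ± 0.14 and Casp4 by 0.46 ± 0.12, and of 10 complement genes 3 rose, namely C2 by 0.99 ± 0.25, C4b by 0.95 ± 0.29 and the receptor C3ar1 by 0.61 ± 0.15. Without CC001F1 aPD1 replicate 1, 7 of the 10 complement genes were called, and without CC001F1 isotype replicate 1, 2. Of 12 immediate early genes, transcription factors and regulators induced within minutes of a stimulus, 8 rose. Egr1 had 394 to 520 against 558 to 969, without overlap (0.67 ± 0.13, adjusted p = 9.4e-05), and Fosb rose by 1.33 ± 0.28. The immediate early count was 5 without CC001F1 isotype replicate 1, CC001F1 aPD1 replicate 2 or CC002F1 aPD1 replicate 1.

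Fewer genes of the tissue frame were called. Of 7 pericyte and smooth muscle genes 2 rose, the cytoskeletal genes Tagln and Acta2. Tagln had 147 to 195 in isotype tumors and 221 to 515 in aPD1 tumors, without overlap (0.96 ± 0.21, adjusted p = 0.0016), and Acta2 rose by 0.86 ± 0.21. Of 15 TGF-β genes 3 rose, among them the target gene Ccn2 by 0.83 ± 0.24 and the matrix gene Ltbp2 by 0.97 ± 0.30, with 1 called without any one of CC001F1 isotype replicate 1, CC002F1 aPD1 replicate 1, CC075F1 isotype replicate 1 or CC075F1 aPD1 replicate 1. DESeq2 called none of 17 collagen and fibroblast genes and none of 13 endothelial genes in either direction, and without CC001F1 aPD1 replicate 1 it called 3 and 2. It also called none of 22 cell cycle genes (median -0.06), of 34 respiratory complex I genes (-0.04) or of 18 cholesterol synthesis genes (-0.13), and 1 of 18 glycolysis and hypoxia genes, the phosphofructokinase Pfkp (0.40 ± 0.11, adjusted p = 0.013). That 1 of 18 (5.56%) was near the 4.85% of all genes tested. All 18 glycolysis genes had a pooled effect above 0 and all 18 cholesterol genes one below 0. Without CC002F1 isotype replicate 2, 7 of the glycolysis genes were called.

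The 64 lower genes had median log2 changes of -0.25 in CC001F1, -0.27 in CC002F1 and -0.28 in CC075F1. Dppa2, a gene of early embryos and germ cells, had 102 to 173 normalized counts in isotype tumors and 45.2 to 91.9 in aPD1 tumors. The 6 aPD1 tumors lay below the 6 isotype tumors, and the gene fell by 1.00 on the log2 scale (SE 0.23, adjusted p = 0.0019). Mest, an imprinted gene, fell by 0.74 with overlapping groups (474 to 890 against 278 to 569). Mttp, which loads lipid on lipoproteins, had 211 to 330 against 152 to 204 and fell by 0.45, again without overlap. The zinc finger gene Zfp599 fell by 0.51, from 261 to 303 in isotype tumors to 156 to 255, also without overlap, and the others of the 8 lower genes named among those with a mean of at least 100 normalized counts, Gpr85, Gm44777, Gm14410 and 9330182L06Rik, fell by 0.42 to 0.52.

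Beyond the lists, the 12 genes with the largest increases included Ccl3, Ccl4, Ifng, Gbp2b, Calhm6 and Acod1 and 6 more. Ifit1bl1, of the antiviral Ifit family, rose by 1.63 ± 0.37, Slfn1, a Schlafen gene of myeloid and T cells, by 1.46 ± 0.36 and Cd300e, an activating receptor of monocytes, by 1.55 ± 0.51. Ly6i, a surface gene with close copies beside it, rose by 1.5 ± 0.49. Inpp5j, a phosphoinositide phosphatase, rose by 1.99 ± 0.42, and its effect differed between lines, with 0.47 in CC001F1, 1.95 in CC002F1 and 3.61 in CC075F1 (interaction adjusted p = 0.017). The processed pseudogene Pgam1-ps2 rose by 2.24 ± 0.65 from 12.0 to 115 normalized counts to 45.2 to 361, and reads of its parent gene could be assigned to it.

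The second question was how the size of the response differed by line. Over the 762 higher genes, which the pooled contrast chose, the median effect by line was 0.45 (CC001F1), 0.59 (CC002F1) and 0.72 (CC075F1), beside 0.006, 0.007 and -0.004 over all genes tested. Called within a line by its own 2 against 2 tumors, 12 genes passed in CC001F1 (0.0629%, with 7 higher, 0.0367%, and 5 lower, 0.0262%), 457 in CC002F1 (3.1%, with 259 higher, 1.76%, and 198 lower, 1.34%) and 353 in CC075F1 (2.56%, with 243 higher, 1.76%, and 110 lower, 0.799%). Of the 762 genes, 4 were called within CC001F1, 94 within CC002F1 and 162 within CC075F1. The spread was estimated over all 12 tumors. Leaving out a tumor leaves a lone sample, assumed to vary like the other groups: without aPD1 replicate 1 the CC001F1 count was 364 and without replicate 2 it was 0, the CC002F1 count was 57 to 268, and the CC075F1 count was 20 without aPD1 replicate 1 and 846 without replicate 2. The edgeR test called 0, 41 and 0 genes in the 3 lines, with 1013 at an unadjusted p under 0.05 in CC001F1 and 2494 in CC075F1.

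The order of the lines was not the same for every list. The immunity-related GTPases had medians of 0.48 in CC001F1, 0.88 in CC002F1 and 1.36 in CC075F1, and the CXCR3 axis 0.30, 0.72 and 1.28. The guanylate-binding proteins (0.35, 1.13 and 1.04), MHC class II (0.47, 0.85 and 0.67) and MHC class I (0.11, 0.33 and 0.18) were highest in CC002F1. The activated macrophage genes had medians of 0.96, 1.06 and 1.41, of which the CC001F1 value averaged shifts of -0.0015 and 1.43 in its 2 tumors, and the antiviral genes ran in the other order. The cytotoxic effectors had -0.31 in CC001F1, 1.13 in CC002F1 and 1.73 in CC075F1. No test was made of a list's difference between lines. The shifts of the cytotoxic list were -1.36 and -0.03 in the 2 aPD1 tumors of CC001F1, 1.28 and 1.34 in those of CC002F1, and 2.29 and 1.18 in those of CC075F1. Both CC001F1 shifts were below the other 4, but its isotype tumors started higher (levels 8.63 and 8.95, against 7.20 to 8.26 in the other lines). In level, CC001F1 aPD1 replicate 2 (8.76) stood beside the CC002F1 aPD1 tumors (8.71 and 8.78). The CC001F1 isotype tumors were also the highest for the immunity-related GTPases (10.99 and 11.43, against 10.36 to 10.58) and the antiviral genes (10.43 and 10.76, against 10.16 to 10.42).

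**Figure D4:**
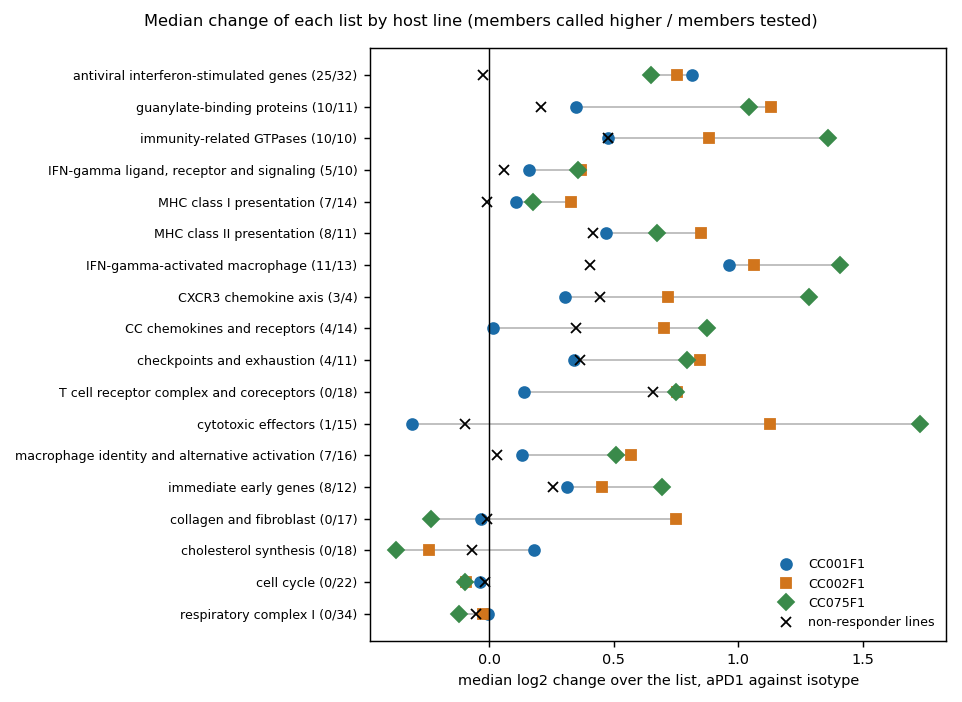
Median log2 change of 18 gene lists in each responder line and in the non-responder lines. Points are medians over the members of a list of the fitted aPD1 against isotype effect, crosses the non-responder lines, and the numbers beside each list the members called higher of those tested over the 3 responder lines. CC001F1 has the lowest value for most lists, such as 0.35 against 1.13 and 1.04 for the guanylate-binding proteins, and the highest for the antiviral genes (0.81).

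Tested gene by gene, 282 of 16183 genes (1.74%) had an effect that differed between lines in the DESeq2 likelihood ratio test of the interaction, and edgeR called 32. Only 4 of the 762 higher genes were among them (0.525%), so for the others a difference in size between lines was not shown. On simulated counts this DESeq2 test made 79 false calls beside 77 and 92 changed genes recovered. Part of the 282 calls, including those named below, may therefore be false. Between pairs of lines, 76 genes differed for CC001F1 against CC002F1 (0.47%), with the effect larger in CC001F1 for 34 (0.21%) and smaller for 42 (0.26%). For CC001F1 against CC075F1 17 differed (0.0757%), 6 larger in CC001F1 (0.0267%) and 11 smaller (0.049%), and for CC002F1 against CC075F1 396 differed (2.6%), 231 larger in CC002F1 (1.52%) and 165 smaller (1.08%). Of these, 2, 1 and 2 were among the 762. One of the 4 was Gbp10, with 0.27 in CC001F1, 1.61 in CC002F1 and 0.77 in CC075F1 (adjusted p = 0.0196).

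The granzyme Gzmc, a protease of killer lymphocytes, ran in opposite directions. Its normalized counts were 1852 and 2873 in the CC001F1 isotype tumors and 724 and 906 in the aPD1 tumors, against 440 and 1185, then 2768 and 2487 in CC002F1, and 1080 and 676, then 5138 and 3019 in CC075F1. Each line's aPD1 pair was apart from its isotype pair, below it in CC001F1 and above it in the others, with log2 changes of -1.53, 1.69 and 2.22 (interaction adjusted p = 0.000223). Gzmc has close copies in the same gene cluster, among which shared reads are split. Of the same kind, the NK receptor gene Ncr1 had effects of -0.64, 1.5 and 2.09 (adjusted p = 0.0228), with 69.0 and 164 against 76.3 and 69.2 in CC001F1, while in CC002F1 (76.7 and 67.1 against 199 and 206) and CC075F1 (35.6 and 69.2 against 303 and 135) the aPD1 tumors were higher.

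Stress genes of the unfolded protein response and amino acid starvation differed by line through CC002F1. Chac1, which degrades glutathione, had 942.1 and 995.6 normalized counts in the CC002F1 isotype tumors and 356.3 and 315.3 in the aPD1 tumors. In the other 2 lines it had 308 to 507 in isotype tumors and 519 to 565 in aPD1 tumors. Its log2 changes were 0.16, -1.53 and 0.45 (interaction adjusted p = 4.15e-08). Ddit3, the stress factor CHOP, changed by 0.03, -1.14 and 0.02 (adjusted p = 0.00711), and Atf4, its upstream regulator, by 0.07, -0.54 and 0.07 (adjusted p = 0.0359). In all, 4 of the 14 genes of this list were among the 282.

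Several other interaction calls had effects of opposite sign in different lines. Cilp, a matrix protein of cartilage and fibroblasts, had 253 and 408 in the CC002F1 isotype tumors and 1577 and 1925 in the aPD1 tumors, but 2053 and 5813 against 227 and 674 in CC075F1, with 609 and 1522 against 1713 and 756 in CC001F1 (log2 changes 0.21, 2.41 and -3.13, interaction adjusted p = 0.00214). The collagen gene Col6a2 changed by -0.07, 0.53 and -0.93 (adjusted p = 0.00152), and the imprinted noncoding RNA H19 by 0.31, 1.73 and -2.47 (adjusted p = 0.0291). Of the 17 collagen and fibroblast genes 2 were among the 282, and the list shifted by 1.00 and 0.55 in the 2 CC002F1 aPD1 tumors and by -0.37 and -0.16 in those of CC075F1. The desmosome gene Dsc2 changed by -1.53, 1.24 and 1.99 (adjusted p = 0.0386). In Gm2223 and Gm43802 the test rested on tumors at 0. Gm2223 had 0 in both CC002F1 aPD1 tumors and in CC001F1 isotype replicate 2 and 71.1 to 475 in the other 9, and Gm43802 had 0 and 2.40 in the CC001F1 isotype tumors and 44.4 to 553 in the other 10.

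The third question was whether the response differed from that in the non-responder lines. In the 3 non-responder lines 11 of 24552 genes were called (0.0448%), 10 higher (0.0407%) and 1 lower (0.00407%). A gene called in the responder lines and not in the others is not thereby shown to differ, and the test of the difference over all 23 tumors called 9 of 26342 genes (0.0342%), with the effect larger in the responder lines for 5 (0.019%) and smaller for 4 (0.0152%). The edgeR test made 0 calls, and 1932 genes had an unadjusted p under 0.05. Both tests took tumors as units, although the class belongs to a line, with 3 lines against 3. Neither had a term for the antibody effect varying between lines of a class, so these p-values do not measure the spread between lines. Of the 9, 4 had a mean of at least 100 normalized counts over the 23 tumors. Tnf, at 205 to 309 in isotype and 296 to 746 in aPD1 tumors of the responder lines, had 165 to 296 over all 11 non-responder tumors of both antibodies, and its effect was larger by a log2 difference of 1.31 ± 0.30 (adjusted p = 0.0297). The effect of Dhx58 was larger by 1.11 ± 0.25 (adjusted p = 0.0297) and that of Bcl2l11, which encodes the death protein BIM, by 0.67 ± 0.13 (adjusted p = 0.00513). The effect on Rbm12b1, an RNA-binding protein gene, was lower by a log2 difference of -0.60 (SE 0.13, adjusted p = 0.0297). The other 5, Glycam1, Cr2, Art4, Gm6184 and Gm27254, had means of 0.479 to 35.8 normalized counts over the 12 responder tumors. Among non-responder tumors Glycam1 had 287 in CC079F1 aPD1 replicate 1, 289 in CC080F1 aPD1 replicate 1 and 0 in the rest. Cr2 had 166 and 271 in the same 2 tumors and 12.4 to 41.0 in the rest.

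Set side by side without a test, the list medians in the non-responder lines were -0.02 for the antiviral genes, 0.21 for the guanylate-binding proteins and -0.01 for MHC class I, against 0.75, 0.87 and 0.20 in the responder lines. They were 0.48 against 0.95 for the immunity-related GTPases, 0.42 against 0.64 for MHC class II and 0.66 against 0.60 for the T cell receptor genes. Ido1 changed by 1.28 in the non-responder lines and by 1.12 in the responder lines. The class difference was sensitive to single tumors: the count of 9 ran from 4 without CC080F1 isotype replicate 1 to 305 without CC001F1 aPD1 replicate 1, and only 7 of the 23 leave-one-out fits stayed within 1.5 times of it.

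Marker genes of other tissues varied between tumors and in part moved with the antibody. The mean log2 level of 12 skeletal muscle genes ran from 2.16 to 9.67 in isotype tumors and from 2.13 to 10.8 in aPD1 tumors, with 5.03 or more in 4 aPD1 and 2 isotype tumors, and all 12 genes had an effect above 0 in each line, although DESeq2 called none (median log2 change 2.62). The level of 11 B cell and lymph node genes was 8.27 in CC002F1 isotype replicate 1 and 4.34 to 4.88 in the other 5 isotype tumors, and 3.48 to 4.85 in aPD1 tumors. In that list 2 genes were called lower, Cr2, a complement receptor of B cells (10.4 to 233 normalized counts against 2.87 to 18.8), and Glycam1, a gene of lymph node vessels, listed at 430 in CC002F1 isotype replicate 1 and at 0 in the other 11 tumors. The 2 antibody groups overlapped in adipocyte level (2.41 to 6.99 and 2.07 to 4.95, highest in CC002F1 isotype replicate 1) and in the level of the MC38 and epithelial list (4.89 to 6.61 and 3.6 to 6.45), although 4 of the 6 aPD1 tumors lay below both isotype tumors of their line. That list joins the tumor cell marker Shisal2b with keratin and other epithelial genes. In every CC036F1 tumor Krt18 was at 0 while Shisal2b was at 523 to 726, so the level of the list is not a measure of MC38 cells. In CC002F1 the keratin genes Krt8, Krt18 and Krt19 were called lower. Krt8 had 118 and 66.0 normalized counts in the isotype tumors and 2.59 and 3.52 in the aPD1 tumors of that line, and Krt19 was at 101 and 79.9 against 0 and 0. The effects on Krt8 and Krt19 differed between lines (interaction adjusted p = 8.66e-05 and 2.62e-06). Of 3 keratinocyte genes and 4 mast cell and eosinophil genes tested none was called, and of 6 plasmacytoid dendritic cell genes 2 were, Bst2 and Ccr9, a count that was 0 or 1 without any one tumor other than CC001F1 aPD1 replicate 1. The defining B cell and adipocyte genes were highest in a single isotype tumor of CC002F1, and the count of calls without that tumor was 633. What these tissues contributed to any change above was otherwise not tested.

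**Figure D5:**
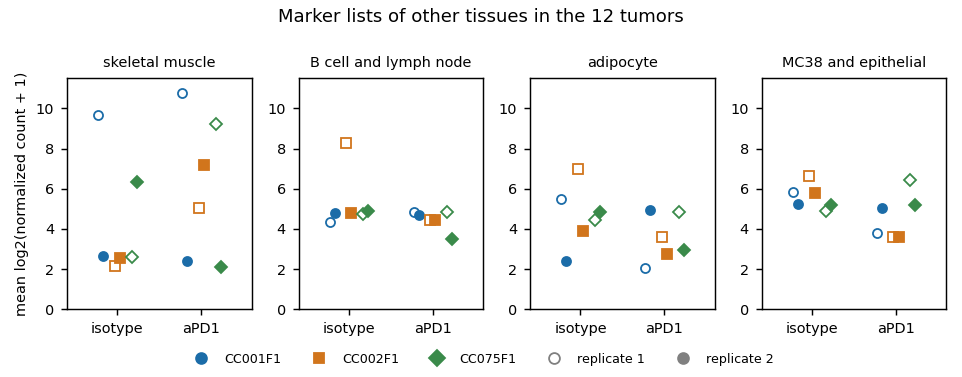
Level of 4 marker lists of other tissues in the 12 tumors. The vertical axis is the mean log2(normalized count + 1) over the members of a list, points are tumors colored by line, and open and filled symbols are replicates 1 and 2. CC002F1 isotype replicate 1 stands at 8.27 in the B cell and lymph node panel, and the muscle level ranges from 2.13 to 10.8.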

How the data were processed

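Polyadenylated RNA of whole MC38 tumors was sequenced. According to the study's methods and processing notes, the authors aligned reads with Bowtie 1.2.3 to transcriptomes of the founder strains (GRCm38, mm10) and resolved shared reads with EMASE in gbrs, and they deposited expected counts per gene, which are estimates and not normalized. Here the deposited expected counts were rounded to whole numbers (16.9% were not whole, and the largest change of a library total was 67), and gene names came from GENCODE for 26681 of 26869 identifiers. The reads counted could not be separated by strand here. Antibody effects were tested with DESeq2 1.42.0 (Wald test, genes with at least 5 counts in sum, host line as a term, independent filtering, Benjamini-Hochberg adjusted p under 0.05) in R 4.3.3. Differences between lines were tested by a likelihood ratio test of the interaction, and between responder and non-responder lines by an interaction contrast over 23 tumors. Alternatives were edgeR 4.0.16, limma 3.58.1, other normalization and filters, and leaving out each tumor or line. Fits were tested on simulated data with 100 genes changed by 1 and 100 by 2 on the log2 scale. For the pooled effect DESeq2 recovered 99 and 100 with 40 false calls, and edgeR and limma each 99 and 100 with 11. The DESeq2 interaction test recovered 77 and 92 with 79 false calls, and the CC002F1 contrast 88 and 96 with 46. In each DESeq2 fit the false share of calls exceeded 0.05, so the adjusted p was too lenient there.

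Named genes were calls of at least 100 mean normalized counts with 1 sign in 3 lines (12 highest, 8 lowest log2 changes), the 6 interaction calls with the widest range of line effects, up to 5 class differences each way, and in each of 40 lists up to 4 genes of smallest p and the member with the most counts. Other genes were named after their values were seen. Some genes that the rule named are not reported here. The members and lists were chosen with earlier results of these data known, so a list's count is a description and not independent evidence.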

Additional observations from a re-analysis of the deposited data

Results flagged for a closer look

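The values of the lists and named genes were examined for single tumors far from the other 5 of their antibody group, by Dixon's ratio over the 6 tumors. Of 122 groups examined 8 (6.56%) had such a tumor, where chance gives about 1 in 20. In isotype tumors these were the CXCR3 axis in CC001F1 replicate 2 (mean log2 level 10.3, nearest tumor 9.69), the T cell receptor genes in CC002F1 replicate 2 (6.76, nearest 7.43), the checkpoint genes in the same tumor (7.08, nearest 7.52), the B cell and lymph node genes in CC002F1 replicate 1 (8.27, nearest 4.88), the collagen genes in CC075F1 replicate 2 (12.7, nearest 12.1) and the keratinocyte genes in CC001F1 replicate 2 (1.63, nearest 3.13). In aPD1 tumors they were the B cell and lymph node genes in CC075F1 replicate 2 (3.48, nearest 4.45) and Mttp in CC002F1 replicate 1 (7.26, nearest 7.59).

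The antibody effect differed between the 3 lines, by the interaction test, for Gm43802 (DESeq2 adjusted p = 4.47e-06), Gzmc (0.000223), Cilp (0.00214), H19 (0.0291), Dsc2 (0.0386) and Gm2223 (0.0498). The test of responder against non-responder lines, with tumors and not lines as units, called Tnf (log2 difference 1.31), Dhx58 (1.11), Bcl2l11 (0.671) and Rbm12b1 (-0.604).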

How the results depend on the processing

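No named gene that was called changed direction under any alternative. The median of the B cell and lymph node list went from -0.893 to 0.103 without CC002F1 isotype replicate 1. That of the collagen and fibroblast list went from 0.173 to -0.00177 without CC002F1 aPD1 replicate 1. Against 826 genes in the responder lines, edgeR, edgeR with its own expression filter and limma each called 0, and the count was 210 without line CC002F1 and 395 without CC075F1. It ran from 327 to 1386 with 1 tumor left out. TMM scaling gave 823, no filter 815, a stricter filter 826, no line term 689, a depth term 739, deep libraries alone 951 and no CC001F1 909. Within lines, edgeR called 0 against 12 in CC001F1, 41 against 457 in CC002F1 and 0 against 353 in CC075F1, and leaving out 1 tumor gave 0 to 364, 57 to 268 and 20 to 846. For the interaction edgeR called 32 against 282, and leaving out 1 tumor gave 135 to 723 (without CC002F1 aPD1 replicate 1 and CC075F1 isotype replicate 1). For the class difference, against 9, a stricter filter gave 4, edgeR 0, deep libraries 50, and 1 tumor left out 4 to 305. The causes of these differences were not tested beyond the smaller number of samples where tumors or lines were left out.

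With the replicate number as a block 729 genes were called. The labels do not say whether equal numbers pair the samples. The same-number correlation of deviations was 0.42 (CC001F1), 0.0861 (CC002F1) and -0.212 (CC075F1), and with 2 tumors per group it cannot decide this. Of the named genes' values under alternatives 4344 kept their side of the threshold, 715 lost it and 131 passed it. Pairs of tumors and the 2 libraries under 25000000 counts limit what a single line can show.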

Other observations

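Of the 762 genes higher in aPD1 tumors 139 were in the lists and 623 were not. Families were picked by name after their values were seen, so their counts are descriptions without a test. They were counted over all genes tested, so members such as Socs1, Fcgr4 and Zfp36 are also in the lists. Of 14 interferon-inducible DNA sensor genes of the Ifi200 family 11 were called higher, with a median log2 change of 1.01. Ifi204, one of them, had 1201 to 2339 normalized counts in isotype tumors and 1953 to 6254 in aPD1 tumors (1.03 ± 0.29, DESeq2 adjusted p = 0.012). Of 8 Schlafen genes 6 were higher (median 0.91), of 10 CD300 receptors, which tune myeloid activation, 8 (0.76), of 12 Toll-like receptors 5 (0.47), and of 9 apolipoprotein L genes 5 (0.46). The other families looked at had 5 of 21 C-type lectins higher (0.42), 4 of 11 MS4A membrane proteins (0.54), 6 of 46 tripartite motif genes (0.02), 2 of 4 Fc gamma receptors (0.59) and 2 of 4 leukocyte immunoglobulin-like receptors (0.71). Over all genes tested 4.85% were called higher. The Ifi200, Schlafen and CD300 families hold near copies whose shared reads are split. Of 7 suppressors of cytokine signaling 2 were higher, with a median of 0.003. Socs3, one of these 2, had 1447 to 2003 in isotype tumors and 2094 to 4221 in aPD1 tumors, without overlap (0.81 ± 0.15, adjusted p = 2.6e-05).

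Among 365 genes named Zfp, which encode zinc finger proteins, 10 were called lower and 1 higher, beside 0.408% and 4.85% of all genes tested. The 1 higher was Zfp36, already counted among the immediate early genes. A pooled effect above 0 was seen in 98 of the 365, beside 7327 of all 15701, and the median was -0.09, beside -0.01. Zfp148 had 4990 to 5336 normalized counts in isotype tumors and 4342 to 4837 in aPD1 tumors, without overlap, and fell by 0.16 on the log2 scale (adjusted p = 0.017).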
